A study of Homo sapiens with 26 samples.

Results

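Chemokine ligands and receptors were followed through 10 genes: the ligands CXCL5, CXCL1, CXCL2, CXCL3, CXCL6, CXCL8, CCL2 and CXCL12, and the receptors CXCR4 and ACKR3. They were chosen by their signals in WT8 and PRC3, where CXCL5 was higher and ACKR3 lower in WT8, so the values of that contrast are given here as a description, with no test. The members are all probe sets annotated to 1 of these genes and to no other, which makes 20 of 54613 probe sets and 10 of 19775 named genes. A filter on low signals kept 16 of the 20, for 9 of the 10 genes. It left out the only probe set of CXCL6 and 1 each of CXCL2, CXCL12 and ACKR3.

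Total RNA of 786-O cells was measured on 26 Affymetrix U133 Plus 2.0 arrays. 786-O is a clear cell renal carcinoma line that has lost VHL function. VHL targets HIF-alpha subunits for degradation, so the line accumulates the transcription factor HIF-2a. Groups of 3 arrays, numbered 1 to 3 in their titles, were labelled 40, 41, 76, 77, DMSO, Blk, WT8 and PRC3, and pTR and pTV had 1 array each. The numbers 40, 41, 76 and 77 were taken as the HIF-2a inhibitor compounds and Blk as the untreated cells, by elimination, with DMSO as the vehicle. The labels name no structure, dose or treatment time of a compound. WT8 and PRC3 are names widely used for clonal 786-O sublines that carry wild-type VHL and an empty vector, which the labels do not state. The labels do not define pTR and pTV. Whether the 3 arrays of a group were separate cultures is not labelled, and the p-values therefore rest on a spread between arrays that may be technical.

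Chemokines are small secreted proteins that draw cells along their gradients by binding G protein-coupled receptors. CXCL1, CXCL2, CXCL3, CXCL5, CXCL6 and CXCL8 share an ELR motif ahead of their paired cysteines, attract neutrophils and support vessel growth through CXCR2, and for CXCL6 and CXCL8 also through CXCR1. Their genes lie in a cluster on chromosome 4, and NF-kB, the transcription factor of inflammatory signalling, is known to induce them. CCL2 attracts monocytes through CCR2. CXCL12 signals through CXCR4, a receptor known to be raised in VHL-deficient renal carcinoma, while ACKR3, formerly CXCR7, binds CXCL12 as a scavenging atypical receptor.

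The promoter windows of the ELR ligands are shown because 6 of these neighbouring genes carry the same core sequence. RefSeq promoter windows of GRCh38.p14, 250 bases before to 50 after each gene start, were found for 8 of the 10 genes. Searched on both strands, GGAATTTCC, a form of the NF-kB binding motif, was in the windows of 6 of these 8 genes and in 0.461% of all 35116 windows. The first is a count of genes, which had 10 windows in all, and the second a share of windows. The 6 are related neighbouring genes and so not separate hits against that share. The stretches run 5′ to 3′ on the strand of the gene, with the motif in capitals. They lie at chr4:73998748-73998777 (CXCL5, minus strand), chr4:73836579-73836608 (CXCL6, plus), chr4:73869305-73869334 (CXCL1, plus), chr4:74099253-74099282 (CXCL2, minus), chr4:74038748-74038777 (CXCL3, minus) and chr4:73740468-73740497 (CXCL8, plus), with the motif starting between 77 and 91 bases before the gene start.
CXCL5: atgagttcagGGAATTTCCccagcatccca
CXCL6: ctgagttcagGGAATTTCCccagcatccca
CXCL1: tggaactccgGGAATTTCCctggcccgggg
CXCL2: tggagctccgGGAATTTCCctggcccggga
CXCL3: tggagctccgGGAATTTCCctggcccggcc
CXCL8: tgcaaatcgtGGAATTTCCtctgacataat
The motif is a match of letters and was not tested as a binding site.

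GCGTG and ACGTG, the core letters that HIF binds, were searched in the same windows on both strands. GCGTG was in the windows of CXCR4 and CXCL5 and in 36.5% of all windows, and ACGTG was in none of the 8 genes and in 21.4% of all windows. The stretch of CXCR4 nearest to a gene start, at chr2:136118171-136118200 on the minus strand, is given with GCGTG in capitals, 39 bases before that start.
CXCR4: gccgcgctcggaGCGTGtttttataaaagt

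Median deposited signals were between 20.2 and 27.4, hardly above the floor of 20 below which values were set to 20. All 26 arrays were quantile normalized, and signals are printed on that scale, while differences use log2 values after the floor. A probe set is called where limma gave an adjusted p under 0.05 (Benjamini-Hochberg over 35013 probe sets). Arrays 2 and 3 of compound 40 had deposited means of 166 and 174, against at most 143 on the other 24. They were therefore taken as scaled in another way. Array 3 of WT8 stood apart in RNA quality, with a 3 prime over 5 prime ratio of 2.37 for ACTB, against at most 1.39 elsewhere. Over the 26 arrays the renal and epithelial markers PAX8, VIM, KRT8 and KRT18 were at 570.3 or more, and PAX2 between 22.1 and 177. Of the leukocyte markers PTPRC and CD14 stayed below the floor, CD3E reached 31.1 and ITGAM 66.6. Of the endothelial markers VWF stayed below the floor, CDH5 reached 22.5, KDR 35.1 and PECAM1 117. Of the fibroblast markers COL3A1 reached 22.5, DCN 45.7, LUM 113 and COL1A1 145. The part of these signals in the results was not tested. EPAS1, which encodes HIF-2a, averaged between 319.7 ± 109 with compound 76 and 494 ± 72.8 in Blk over the 6 treatment groups (SD, n = 3), and the compounds are described as acting on its translation. In a bulk measurement of a cell line, fewer cells that make a gene and less RNA in each cell cannot be told apart.

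CXCL5, a neutrophil attractant, was measured by 3 probe sets. Compounds 40 and 41 lowered it on 1 of its 2 bright probe sets, compounds 76 and 77 gave values that overlapped the vehicle, and PRC3 had far less of it than any other group. On probe set 214974_x_at the signals were 354, 215 and 269 on arrays 1 to 3 of compound 40, 289.7, 356 and 210.4 with compound 41, 475, 575 and 362 with compound 76 and 717, 597 and 503 with compound 77. They were 525, 732 and 585 with DMSO and 581, 783 and 634 in Blk. Every array of compounds 40 and 41 lay below every array of DMSO and of Blk. On 215101_s_at the signals were 67.6, 119.7 and 80.2 with compound 40, 92.8, 89.7 and 52.0 with compound 41, 154, 177 and 91.4 with compound 76 and 204, 225 and 131 with compound 77. They were 207, 267 and 155 with DMSO and 229, 283 and 169 in Blk. The order of the groups was close to that of the first probe set, and the 2 had a Pearson r of 0.92 over the 24 arrays of the 8 groups, which share the array-wide normalization. The remaining probe set, 207852_at, was at the floor on 18 of 24 arrays and did not exceed 28.1. The suffixes _x_at and _s_at mark probe sets whose probes can match further transcripts, and CXCL5 is near identical to CXCL6 in parts, though the CXCL6 probe set itself stayed at or under 20.3.

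In the fit of limma over all 24 arrays and 35013 probe sets, CXCL5 fell 2.70-fold with compound 41 on 215101_s_at (-1.43 on the log2 scale, SE 0.29, limma adjusted p = 0.00672). On 214974_x_at the difference was -1.12 (95% interval -1.80 to -0.45, limma adjusted p = 0.0683). Same-numbered arrays of compound 41 and DMSO deviated together over all probe sets, and a fit with the array number as a block called both probe sets (limma adjusted p = 3.31e-05 and 0.00225). The call on 215101_s_at ended without array 3 of compound 41 (limma adjusted p = 0.0630) or array 2 of DMSO (0.0555). With compound 40, CXCL5 fell 2.36-fold on 215101_s_at (-1.24, SE 0.29, limma adjusted p = 0.0468), and on 214974_x_at the difference was -1.15 (limma adjusted p = 0.113). That call was marginal: it ended whichever of the 6 arrays was left out, at a limma adjusted p between 0.0521 and 0.239. With array 1 alone for compound 40, which leaves out the arrays taken as scaled in another way, the difference on 215101_s_at was -1.60. The block called 215101_s_at and 214974_x_at lower for compound 40 (limma adjusted p = 0.000595 and 0.00467). Its same-numbered arrays deviated less closely with DMSO (r = 0.141, 0.0769 and 0.0964). Without WT8 and PRC3 in the fit, 214974_x_at was called lower for compounds 40 and 41 (limma adjusted p = 0.0150 and 0.00657). On 215101_s_at compound 40 was then not called (limma adjusted p = 0.0661). Compound 76 differed from DMSO by -0.40 on 214974_x_at (95% interval -1.07 to 0.28) and compound 77 by -0.02 (-0.69 to 0.65), and neither passed the test on either probe set.

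Over the member probe sets, limma called 2 of 16 for compound 41, CXCL5 lower and ACKR3 higher, where it called 2.54% of all probe sets, 1.17% higher and 1.37% lower. With compound 40 it called 1 of 16, lower, against 0.685% of all and 0.346% lower. It called 0 of 16 for compound 76 and 0 of 16 for compound 77, against 1.35% and 0.171% of all probe sets, and 3646 and 2672 probe sets had an unadjusted p under 0.05. With the array number as a block, 8 of 16 were called for compound 41, where 6.67% of all were, and 2 of 16 for compound 76, against 3.99%. The 8 were ACKR3, higher, and 7 probe sets of only 3 genes, CXCL5, CXCL8 and CXCR4, lower. For compound 40 the block called 3 of 16, of CXCL5 and CXCL8, against 3.15% of all. Probe sets of 1 gene are not separate members. With only the 2 groups compared in the fit, no member probe set was called in any comparison of 2 groups. The median log2 difference of the 16 from DMSO was -0.62 for compound 40, -0.38 for compound 41, -0.21 for compound 76 and 0.11 for compound 77, against 0.00 over all probe sets in each. The 4 comparisons share the DMSO arrays. Arrays did not overlap with DMSO for 4 of 16 member probe sets with compound 40 (14% of all), 7 with compound 41 (20.2%), 2 with compound 76 (17.2%) and 3 with compound 77 (13.1%).

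**Figure D1:**
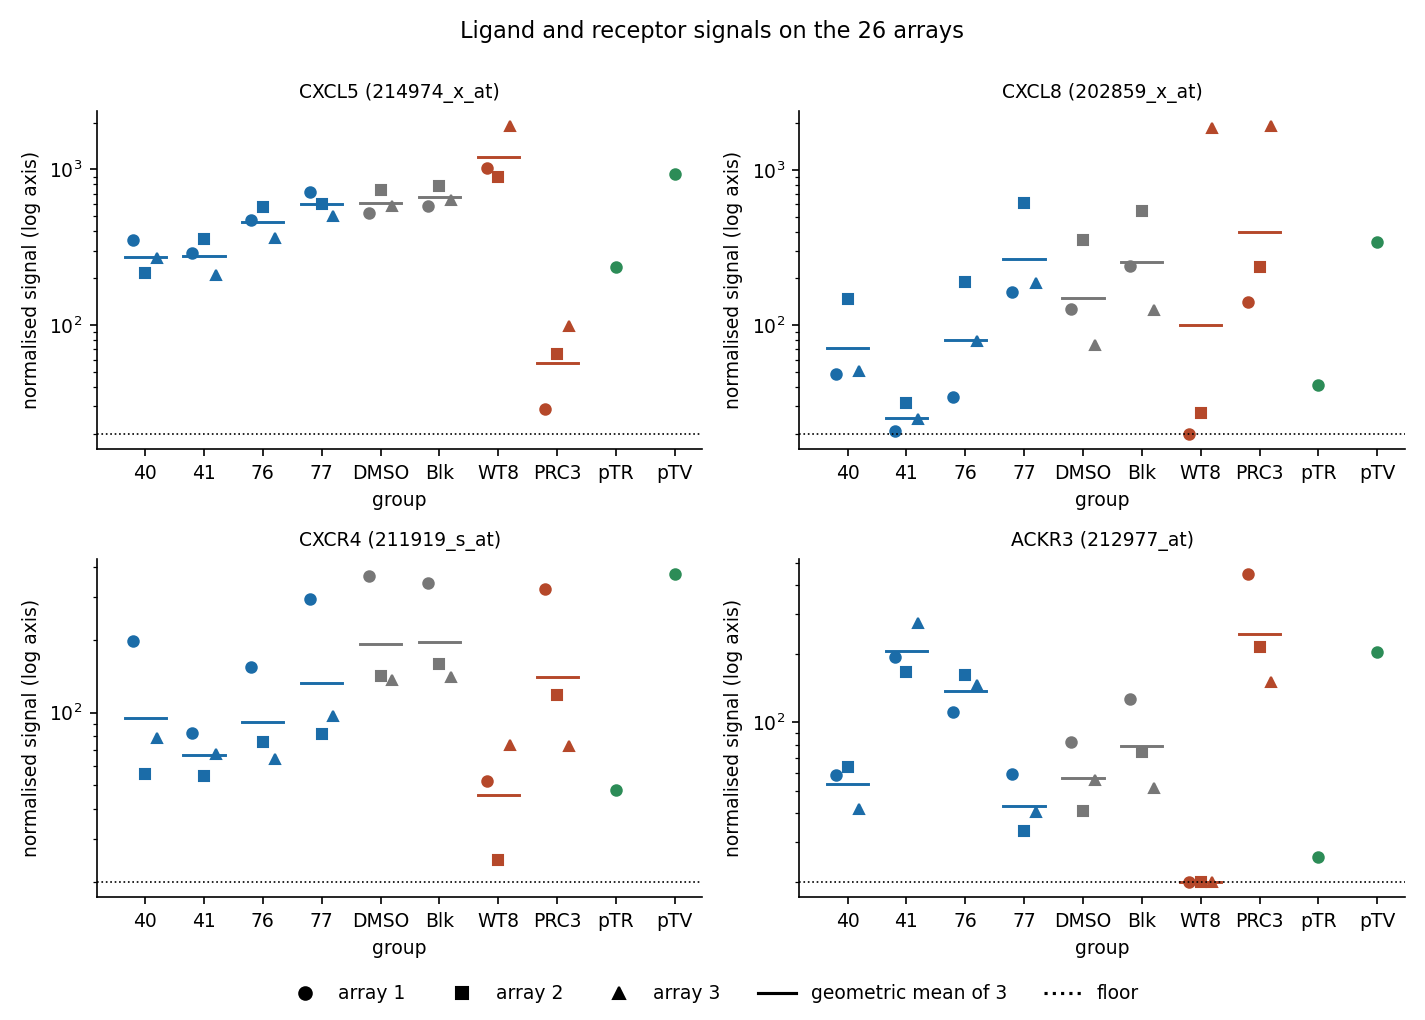
Normalised signal (log axis) of CXCL5, CXCL8, CXCR4 and ACKR3 on each of the 26 arrays by group, with marker shapes for array numbers, lines for the geometric mean of 3 arrays and a dotted line at the floor of 20. CXCL5 lies at 1015, 895 and 1893 in WT8 against 28.9, 64.8 and 98.2 in PRC3, and ACKR3 is at the floor on all 3 WT8 arrays.

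CXCL8, or interleukin 8, the best known neutrophil attractant, varied widely between arrays, with a log2 SD on 202859_x_at of 0.30 with compound 41 and 1.14 with DMSO (n = 3 each). On that probe set it measured 48.6, 147 and 50.4 with compound 40, 20.7, 31.5 and 24.8 with compound 41, 34.7, 189 and 79.0 with compound 76 and 165, 612 and 187 with compound 77. DMSO gave 128, 352 and 74.3 and Blk 239, 546 and 126. Array 2 was the brightest in all 6 of these groups, and the 3 arrays of compound 41 lay below all arrays of DMSO and Blk. On 211506_s_at the signals were 3.79, 27.4 and 15.1 with compound 41 and 15.7, 12.4 and 34.2 with compound 40, against 48.8, 145 and 54.9 with DMSO. Neither compound overlapped DMSO there. The log2 difference of compound 41 from DMSO was -2.56 on 202859_x_at (95% interval -4.97 to -0.16, limma adjusted p = 0.331) and -1.72 on 211506_s_at (limma adjusted p = 0.370). With the array number as a block, both were called lower (limma adjusted p = 0.000675 and 0.0106). These tests use 1 estimate of spread from all 8 groups, and the log2 SD on 202859_x_at was 3.65 in WT8 and 1.99 in PRC3. Without WT8 and PRC3 in the fit, compound 41 was called lower on 202859_x_at (limma adjusted p = 0.0440) but not on 211506_s_at. Compound 77 went the other way, at 0.83 and 0.75 with intervals of -1.57 to 3.24 and -0.94 to 2.45, and did not pass the test.

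CXCL1, a close relative of CXCL2 and CXCL3, was dim. On 204470_at it measured 15.9, 2.85 and 5.26 with compound 40, 35.3, 27.4 and 18.8 with compound 41, 19.9, 33.5 and 29.4 with compound 76, 48.3, 91.2 and 63.6 with compound 77, 37.0, 36.2 and 28.0 with DMSO and 57.8, 70.8 and 44.2 in Blk. All 3 arrays of compound 40 were at the floor, so its fold against DMSO is a bound, at least 1.67-fold lower (limma adjusted p = 0.591). The arrays of compound 77 lay above those of DMSO, at 0.97 on the log2 scale (95% interval -0.05 to 1.98, limma adjusted p = 0.683), so no change was called. CXCL2 on 209774_x_at gave 44.1, 20.8 and 4.87 with compound 40, 36.8, 27.5 and 7.75 with compound 41, 33.4, 37.9 and 33.5 with compound 76, 55.3, 63.9 and 58.7 with compound 77 and 27.1, 51.2 and 37.1 with DMSO. Compound 77 again lay above DMSO on every array, by 0.67 (-0.37 to 1.71), without passing the test. The other CXCL2 probe set kept, 230101_at, was at the floor on 19 of 24 arrays and did not move with the first (Pearson r = -0.19). Since CXCL1, CXCL2 and CXCL3 are near-identical paralogs, their probe sets may read each other.

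CXCL3, CXCL6 and CCL2 were barely measurable in these cells. CXCL3 was at the floor on 19 of 24 arrays, CCL2 on 20 and CXCL6 on 23. The highest signals were 42.5 for CXCL3 and 42.8 for CCL2, both on array 3 of PRC3. CCL2 rose above the floor on 1 array of Blk and 2 of compound 77 besides, and no comparison of it or of CXCL3 was called. CXCL12, the ligand of CXCR4 and ACKR3, was low but above the floor on every array, between 23.3 and 60.4 on 203666_at. It measured 60.4, 44.7 and 35.5 with compound 40, 40.0, 37.3 and 35.4 with compound 41, 44.7, 28.3 and 23.3 with compound 76, 44.0, 50.3 and 31.9 with compound 77, 32.5, 41.0 and 26.1 with DMSO and 42.6, 35.5 and 39.3 in Blk. The groups overlapped, and the differences from DMSO lay between -0.08 with compound 76 (95% interval -0.67 to 0.52) and 0.49 with compound 40 (-0.11 to 1.08). The receptors through which the ELR ligands and CCL2 act gave little signal: CXCR1 did not exceed 13.0 on any of the 26 arrays, CXCR2 22.1 and CCR2 26.1.

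CXCR4, the signalling receptor of CXCL12, was read by 3 probe sets that moved together, with pairwise r between 0.93 and 0.95 over 24 arrays. It was lower with each compound than with DMSO on each of the 3 array numbers, yet array 1 was so much brighter than arrays 2 and 3 that the groups overlapped for most compounds. On 211919_s_at the signals were 197, 55.7 and 78.8 with compound 40, 82.3, 54.7 and 67.1 with compound 41, 155, 75.6 and 64.4 with compound 76 and 293, 81.2 and 96.7 with compound 77. They were 366, 141 and 136 with DMSO and 343, 158 and 139.6 in Blk. Array 1 was the brightest in all 6 of these groups on all 3 probe sets, and on 211919_s_at only compound 41 had every array below every DMSO array. On 217028_at compound 41 gave 71.1, 8.48 and 45.7 and compound 76 99.2, 27.2 and 36.8, against 359, 74.3 and 70.5 with DMSO. On 209201_x_at they gave 64.3, 5.95 and 7.41 and 100.4, 9.78 and 8.47, against 286, 107 and 102, with arrays 2 and 3 of both compounds at the floor.

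Without the array number, CXCR4 was not called in any comparison with DMSO. Compound 41 differed by -2.31, -1.52 and -1.62 on 209201_x_at, 211919_s_at and 217028_at (limma adjusted p = 0.219, 0.205 and 0.447). With the array number as a block, all 3 were called lower (limma adjusted p = 0.00370, 0.00769 and 0.0337). For compound 76 the block called 209201_x_at alone (-2.10, limma adjusted p = 0.0118, against 0.382 without it). Between arrays of the same number on 211919_s_at, the log2 differences from DMSO were -0.89, -1.34 and -0.79 for compound 40, -2.15, -1.37 and -1.02 for compound 41, -1.24, -0.90 and -1.08 for compound 76 and -0.32, -0.80 and -0.50 for compound 77. The labels do not say what the array number stands for.

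**Figure D2:**
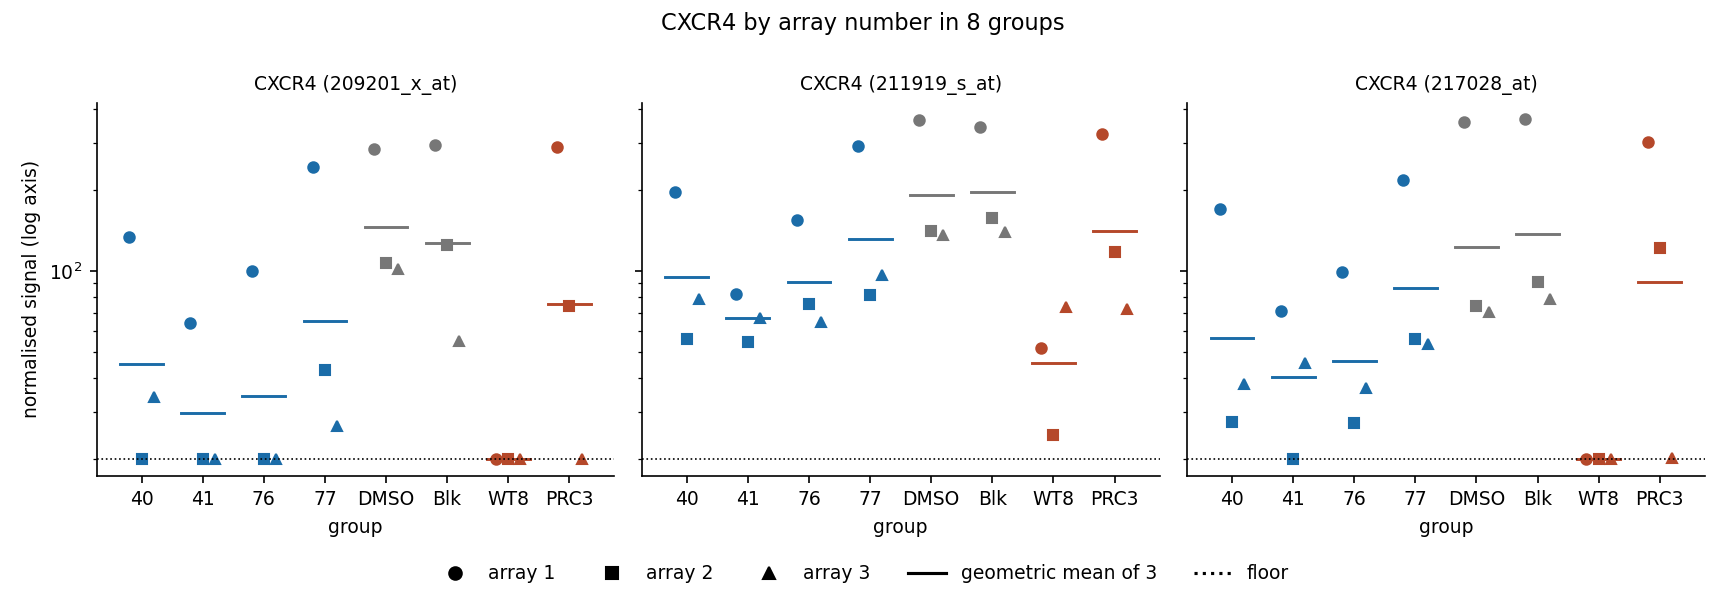
Normalised signal (log axis) of the 3 CXCR4 probe sets in 8 groups, with marker shapes for array numbers, lines for the geometric mean and a dotted line at the floor of 20. Array 1 (circles) is the brightest in all 6 treatment groups and in PRC3, reaching 366 on 211919_s_at with DMSO.

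ACKR3, the scavenging receptor of CXCL12, rose with compound 41 and, where the array number was a block, with compound 76. On 212977_at the signals were 194, 167 and 273 with compound 41 and 111, 162 and 146 with compound 76, against 82.3, 40.7 and 55.7 with DMSO and 127, 73.9 and 51.3 in Blk. Compounds 40 and 77 gave 58.9, 63.7 and 41.8 and 59.3, 33.4 and 40.4. Every array of compound 41 lay above every array of DMSO and Blk, and those of compound 76 above DMSO but not above array 1 of Blk. Compound 41 raised it 3.62-fold over DMSO (1.86 on the log2 scale, SE 0.36, limma adjusted p = 0.00466), and this call held whichever array was left out, at a limma adjusted p of at most 0.0406. It was lost with the 2 groups fitted alone (limma adjusted p = 0.0693). Compound 76 differed by 1.27 (95% interval 0.52 to 2.02, limma adjusted p = 0.0899), and was called higher with the array number as a block (limma adjusted p = 0.0300). Compounds 40 and 77 differed by -0.09 (-0.83 to 0.66) and -0.41 (-1.15 to 0.34). The second ACKR3 probe set kept, 232746_at, was at the floor on 14 of 24 arrays and differed by 0.02 between compound 41 and DMSO, so the rise rests on 1 probe set. The third, 1559114_a_at, was at the floor throughout.

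**Figure D3:**
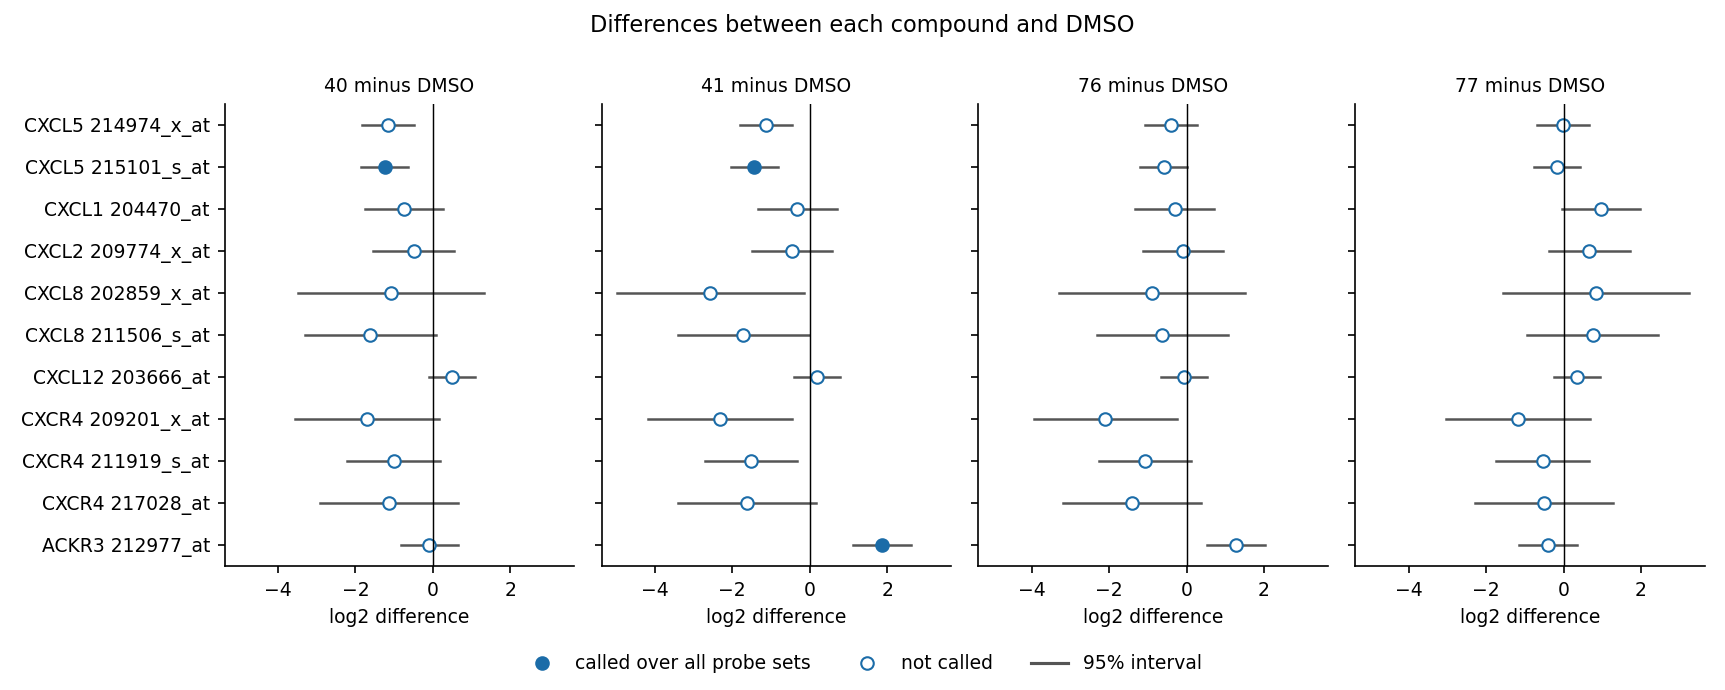
Log2 difference of each compound from DMSO with its 95% interval for 11 member probe sets, 1 panel per compound, with filled points for those called over all probe sets. The called points are CXCL5 215101_s_at for compounds 40 and 41 (-1.24 and -1.43) and ACKR3 212977_at for compound 41 (1.86).

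Each pair of the 4 compounds was compared directly, in 6 comparisons, to see whether they differ in these genes. In the fit over all 8 groups without the block, ACKR3 was the only member that passed the test in a pair, in 3 of the 6. It was higher with compound 41 than with compound 77 by 2.26 on the log2 scale (SE 0.36, limma adjusted p = 0.00165) and than with compound 40 by 1.94 (SE 0.36, limma adjusted p = 0.0132). It was higher with compound 76 than with compound 77 by 1.68 (SE 0.36, limma adjusted p = 0.0287). In each of these pairs 1 of 16 member probe sets was called, and limma called 0.294%, 0.406% and 0.334% of all higher. In the other 3, compounds 76 and 40, 77 and 40, and 41 and 76, it called 0 of 16, against 0.126%, 0.44% and 0.111% of all, and 3302, 3920 and 1927 probe sets had an unadjusted p under 0.05. Compounds 76 and 40 differed by 1.36 in ACKR3 (95% interval 0.61 to 2.10, limma adjusted p = 0.165), and compounds 41 and 76 by 0.58 (-0.16 to 1.33). The call between compounds 41 and 77 held without any 1 array. That between 41 and 40 ended without array 1 or 3 of compound 41 (limma adjusted p = 0.0508 and 0.0838) or array 3 of compound 40 (0.0596), and with array 1 alone for compound 40 (0.305). That between 76 and 77 ended without any 1 array except array 1 of compound 77, at up to 0.173.

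For CXCL5 the pairs fell into a similar order on both probe sets, without a call in the fit over all 8 groups without the block. The difference of compound 41 from compound 77 was -1.26 on 215101_s_at (95% interval -1.87 to -0.66, limma adjusted p = 0.0536), and from compound 76 -0.84 (-1.45 to -0.24, limma adjusted p = 0.584, and 0.0368 with the array number as a block). Compound 77 lay above compound 40 by 1.07 (0.46 to 1.67, limma adjusted p = 0.128). The block called 215101_s_at and 214974_x_at between compounds 41 and 77 (limma adjusted p = 0.000409 and 0.00729). It also called them between compounds 77 and 40 (limma adjusted p = 0.00243 and 0.00639). Without WT8 and PRC3 in the fit, 214974_x_at alone was called in these pairs (limma adjusted p = 0.0216 and 0.0236). Compounds 41 and 40 differed by -0.19 (-0.80 to 0.41), an interval that leaves room for a difference in either direction. CXCL8 differed between compounds 41 and 77 by -3.40 on 202859_x_at, with a wide interval of -5.80 to -0.99 (limma adjusted p = 0.308). This difference was called without WT8 and PRC3 in the fit (limma adjusted p = 0.0226) and with the array number as a block (limma adjusted p = 9.63e-05). On 211506_s_at only the block called it (limma adjusted p = 0.00129). The block also called CXCL8 higher with compound 77 than with compound 40 (limma adjusted p = 0.0216 and 0.00220). CXCL1 was higher with compound 77 than with compound 40 by 1.71, and compounds 41 and 76 differed from compound 77 by -1.29 and -1.28. The block called each of these (limma adjusted p = 0.00132, 0.0138 and 0.0172). Without WT8 and PRC3 in the fit, those of compounds 40 and 41 were called (limma adjusted p = 0.0104 and 0.0415).

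**Figure D4:**
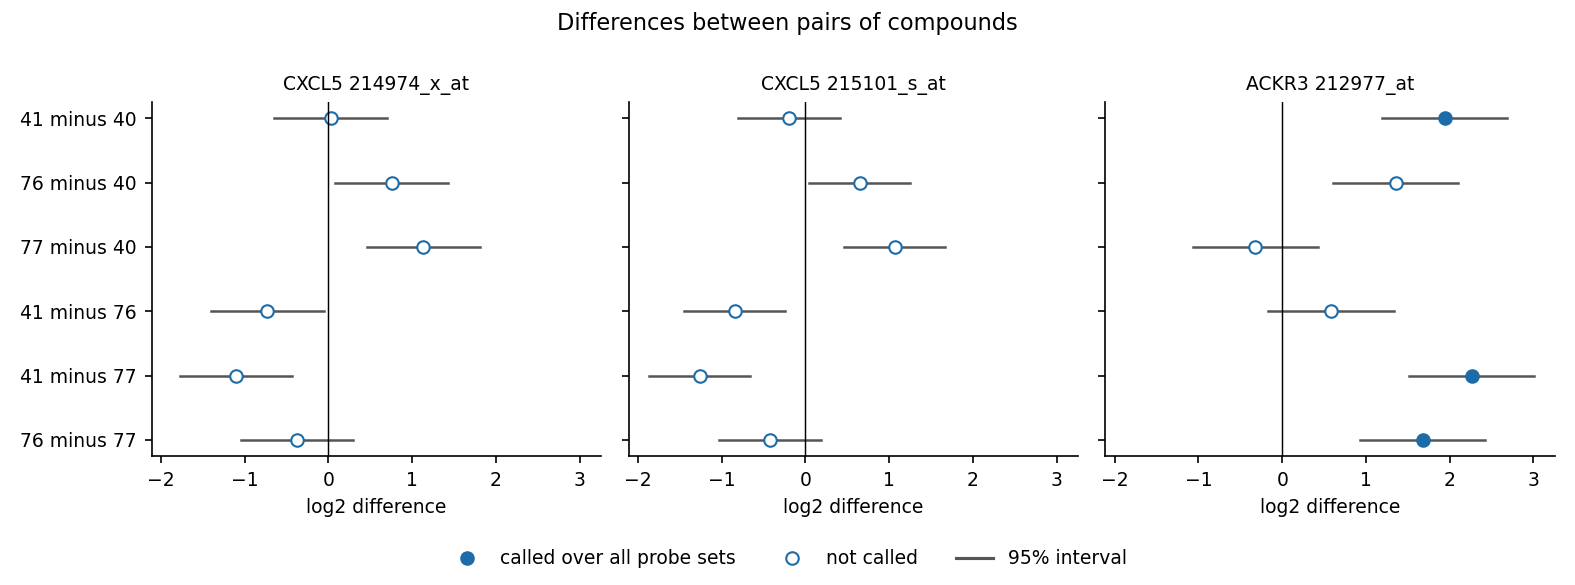
Log2 difference with 95% interval between each of the 6 pairs of compounds for both bright CXCL5 probe sets and for ACKR3, with filled points for called differences. ACKR3 is called for compound 41 minus 40 (1.94), 41 minus 77 (2.26) and 76 minus 77 (1.68).

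The vehicle alone changed none of these genes by the test. limma called 0 of 16 member probe sets between DMSO and Blk, and 0% of all 35013, with 794 at an unadjusted p under 0.05. CXCL5 differed by -0.12 on 214974_x_at (95% interval -0.79 to 0.55), ACKR3 by -0.46 (-1.20 to 0.29) and CXCR4 by -0.03 on 211919_s_at (-1.23 to 1.16). CXCL1 was lower on every DMSO array than on every Blk array, with a difference of -0.76 (-1.77 to 0.26), the only 1 of 16 without overlap, as for 6.15% of all. With the 4 compounds pooled against DMSO and Blk, CXCL5 fell by 0.92 on the log2 scale on 215101_s_at (limma adjusted p = 0.00231) and fell by 0.73 on 214974_x_at (limma adjusted p = 0.0279). These were 2 of 16, against 5.94% of all and 3.32% lower. The call on 214974_x_at ended without array 2 or 3 of DMSO, 2 or 3 of Blk, or 3 of compound 76, at a limma adjusted p of up to 0.0858. CXCR4 differed by -1.72, -1.05 and -1.25 on its 3 probe sets (limma adjusted p = 0.0684, 0.0845 and 0.195). With the array number as a block, all 3 were called lower (limma adjusted p = 0.000371, 0.00164 and 0.00421), as were both CXCL8 probe sets (limma adjusted p = 0.00214 and 0.00357). The block is only an alternative here, since same-numbered arrays of compounds 40 and 77 did not all reach an r of 0.1 with DMSO. Without the block, leaving out array 1 of compound 40 or of compound 77 had CXCR4 called lower on 209201_x_at and 211919_s_at, at limma adjusted p values down to 0.0236 and 0.0339. 209201_x_at was called without array 1 of compound 76 as well. ACKR3 differed by 0.43 (-0.03 to 0.89).

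The values of WT8 and PRC3, which chose the genes, are described beside those of Blk. CXCL5 measured 1015, 895 and 1893 in WT8 and 28.9, 64.8 and 98.2 in PRC3 on 214974_x_at, 21.1-fold higher in WT8. On 215101_s_at it measured 247, 191 and 201 in WT8 and 4.00, 24.1 and 22.0 in PRC3. Set against Blk, WT8 differed by 0.86 and -0.07 on the 2 probe sets, while PRC3 differed by -3.54 and -3.34, so most of the gap lay in the low level of PRC3. ACKR3 measured 16.4, 0.894 and 1.63 in WT8 and 448, 214 and 151 in PRC3, at least 12.2-fold lower in WT8, whose arrays were all at the floor. Against Blk it was at least 3.92-fold lower in WT8 and 3.11-fold higher in PRC3. On these 3 probe sets PRC3 and Blk, both without VHL if the names mean what they usually do, did not overlap, which held for 3 of 16 member probe sets and 14.5% of all. A difference between sublines and one between cultures cannot be told apart here, and the 3 comparisons share their arrays. CXCR4 on 211919_s_at measured 51.9, 24.5 and 73.7 in WT8 and 325, 118 and 72.5 in PRC3. It was low on every WT8 array, and on PRC3 it was high on array 1 and as low as in WT8 on array 3. On 217028_at WT8 was at the floor on all 3 arrays, against 303, 122 and 20.2 in PRC3.

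Array 3 of both sublines stood apart in the inflammatory ligands. CXCL8 on 202859_x_at measured 19.2, 27.4 and 1859 in WT8 and 142, 237 and 1906 in PRC3, and on 211506_s_at 26.3, 10.4 and 259.8 in WT8 and 76.1, 99.8 and 688 in PRC3. Arrays 1 and 2 of WT8 were near the floor and below those of PRC3, whereas array 3 was high in both. CXCL1 showed the same array, with 42.0, 60.4 and 253 in WT8 and 54.2, 56.3 and 186 in PRC3, and so did CXCL2, with 56.6, 74.2 and 293 and 55.0, 37.7 and 127. IL6, an inflammatory cytokine outside the set, measured 76.3, 126 and 947 in WT8 and 80.0, 155 and 650.5 in PRC3. CXCL5 was brightest on array 3 in both sublines on 214974_x_at but not on 215101_s_at. Without array 3 of both sublines, a setting chosen after seeing the data, the CXCL8 difference of WT8 from PRC3 was -2.97 on 202859_x_at, against -1.99 with it, and that of CXCR4 was -2.45 on 211919_s_at, against -1.63. CXCL5 and ACKR3 kept 4.46 and -3.95, against 4.40 and -3.61. The raised ACTB ratio was on array 3 of WT8 and not of PRC3 (1.18), and its part in these signals was not tested.

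**Figure D5:**
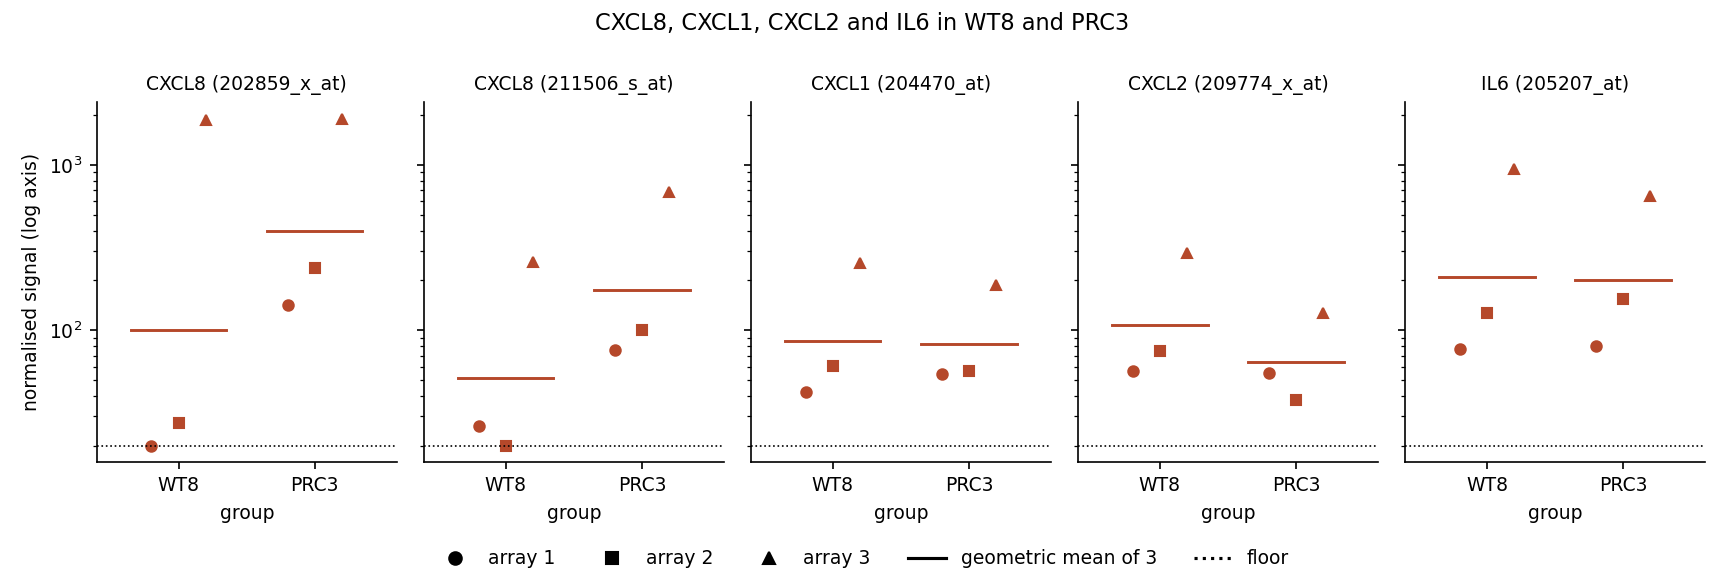
Normalised signal (log axis) of CXCL8 (2 probe sets), CXCL1, CXCL2 and IL6 on the 3 arrays of WT8 and of PRC3, with marker shapes for array numbers, lines for the geometric mean and a dotted line at the floor of 20. Array 3 (triangles) is the brightest in both groups in every panel, at 1859 in WT8 and 1906 in PRC3 for CXCL8 202859_x_at.

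pTR and pTV had 1 array each, so their differences have no replicate check. Most of the bright members were lower in pTR. CXCL5 measured 235 in pTR and 933 in pTV on 214974_x_at and 37.0 in pTR and 269 in pTV on 215101_s_at. CXCL8 measured 41.0 in pTR and 343 in pTV, ACKR3 25.7 in pTR and 204 in pTV, and CXCR4 47.6 in pTR and 373 in pTV on 211919_s_at. CXCR4 on 217028_at was at least 21.9-fold lower in pTR, where it was at the floor. In all, 7 of 16 member probe sets were at least 4-fold lower in pTR and 0 at least 4-fold higher, where 0.574% and 0.623% of all probe sets were. The 7 belong to CXCL5, CXCL8, CXCR4 and ACKR3 only. CXCL2 on 209774_x_at was higher in pTR, at 86.6 in pTR and 55.0 in pTV. CXCL5 and ACKR3 thus went the same way between pTR and pTV, and opposite ways between WT8 and PRC3.

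Genes around the members were counted from 3 lists: 36 other chemokines, 21 other chemokine receptors and 28 genes of the NF-kB pathway. Some of the last, such as NFKBIA, are themselves induced by NF-kB, as the ELR ligands are, and whether they act upstream of the ligands here was not tested. Of the other chemokines 31 had a probe set and 14 passed the filter on low signals. Without the block, limma called 0 of these 14 in any single comparison of a compound with DMSO. In the pooled comparison it called 1 of 14, CXCL10, a share near the 5.94% of all probe sets called there. CXCL10, an interferon-induced lymphocyte attractant, measured 28.9 ± 2.84 with compound 40, 45.3 ± 2.93 with 41, 39.0 ± 10.9 with 76 and 53.3 ± 11.8 with 77, against 61.2 ± 7.35 with DMSO (SD, n = 3). The pooled difference from DMSO and Blk together was -0.70 (limma adjusted p = 0.0107, at most 0.0475 without any 1 array). With the array number as a block, CXCL10 was called lower with compound 40 than with DMSO, where 3.15% of all probe sets were called. CCL5, a T cell attractant, measured 28.6, 72.2 and 74.9 with compound 41, against 17.0, 23.0 and 23.0 with DMSO (1.29, limma adjusted p = 0.104, and 0.0110 with the array number as a block). Of the other receptors 19 had a probe set and 6 passed the filter, and limma called 0 of them in any comparison, with or without the block.

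In the NF-kB pathway 27 of 28 genes were measured. With compound 41, 4 fell and 0 rose, where 2.54% of all probe sets were called. With the array number as a block 6 fell and 0 rose, where 6.67% of all were called. IL1B, the inflammatory cytokine interleukin 1 beta, was at the floor on all arrays of compounds 41 and 76, against 94.9, 58.0 and 46.0 with DMSO. It was at least 3.16-fold lower with compound 41 (limma adjusted p = 0.0320) and with compound 76 (limma adjusted p = 0.0480). TNIP1, an inhibitor of NF-kB signalling, fell by 0.64 on the log2 scale with compound 41 (limma adjusted p = 0.00408). NFKBIZ, a nuclear co-regulator, fell by 1.01 (limma adjusted p = 0.0479) and RELB, an NF-kB subunit, fell by 0.93 (limma adjusted p = 0.0483). Of these 4 calls TNIP1 held whichever array was left out, at a limma adjusted p of at most 0.0340. IL1B was lost in 5 of 6 such fits (all but without array 3 of DMSO, up to 0.180), NFKBIZ in 4 (without array 1 or 2 of compound 41 or 1 or 3 of DMSO, up to 0.207) and RELB in all 6 (up to 0.218). With compound 76, 2 of the 27 fell, IL1B and TNIP1, where 1.35% of all probe sets were called, but IL1B was lost without any 1 of the 6 arrays (up to 0.257) and TNIP1 without any 1 except array 3 of DMSO (up to 0.126). With the array number as a block 5 fell and 1 rose for compound 76, where 3.99% of all were called. Without the block, none of the 27 was called between compound 40 or 77 and DMSO. Between compounds 76 and 77, ICAM1 was called, lower with compound 76, where 0.474% of all probe sets were called. That call was lost in 5 of 6 fits without 1 array (limma adjusted p up to 0.290). In the pooled comparison 4 fell, IL1B, NFKBIZ, TNFAIP3 and TNIP1, and 1 rose, IKBKG, where 5.94% of all probe sets were called. The 4 falls held whichever array was left out, and IKBKG was lost in 6 of 18 such fits (without array 1, 2 or 3 of DMSO, 2 of Blk, 1 of compound 41 or 3 of compound 77, up to 0.126). The median of the 27 was -0.26, -0.28, -0.10 and 0.00 for compounds 40, 41, 76 and 77, against 0.00 over all probe sets. IL6 went along with CXCL8 in being high with compound 77, at 122, 351 and 207, against 50.2, 115 and 64.9 with DMSO (1.52, limma adjusted p = 0.605), a difference that was not called without the block.

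The genes most like a member were ranked by Pearson r of log2 signals over the 24 arrays of the 8 groups, among 15115 other genes. These arrays share the group differences that chose the set, and the r values are a description. Nearest to CXCL5 were ZC3HAV1L, GNB4, S1PR3, KCNK1 and PRTFDC1, with r between 0.87 and 0.92. S1PR3, a sphingosine 1-phosphate receptor, averaged 239.6 in WT8 and 28.3 in PRC3, and 122 in Blk, so that it, too, was lowest in PRC3 of the 3. Nearest to ACKR3 were HOXD10, VTI1B, HSD17B12, ACTR10 and HLX, with r between 0.75 and 0.79, and nearest to CXCL8 were KLF6, MB21D2, NFKBIA, SRPK1 and ZNF367, between 0.81 and 0.85. NFKBIA, the inhibitor of NF-kB that NF-kB itself induces, is on the last of these lists. CCL2 was at the floor on too many arrays for such a ranking to be read. Among the members, CXCL1 and CXCL2 had an r of 0.86, CXCL1 and CXCL8 one of 0.77, and CXCL5 and ACKR3 one of -0.75. CXCL5 had an r of only 0.02 with CXCL8 and 0.13 with CXCL1, over arrays that include the WT8 and PRC3 values that chose the set. Among the 6 treatment groups, CXCL5 on 214974_x_at and CXCL8 on 202859_x_at both had their lowest means with compounds 40 and 41. An r within those groups was not calculated.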

How the data were processed

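RNA of 786-O cells was measured on 26 one-colour arrays. The deposited values are linear MAS5 intensity signals, per the submitters' processing notes. The floor and variation filter that the description label names are not applied in them, and no value reaches the ceiling it names. The depth measure of arrays is their number, which limits the precision. Probe sets were named from GEO's platform annotation, with 41097 of 1 gene each, of which 41043 matched a RefSeq symbol.

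Signals of 54613 probe sets (62 control probe sets left out) were quantile normalized, floored at 20, limited at 16000 and turned to log2. A probe set stayed in where 3 or more of the 24 replicated arrays reached their own median, which left 35013. One trend fit of limma 3.58.1 in R 4.3.3 over 8 groups, with 16 residual degrees of freedom, gave each contrast, with two-sided p-values adjusted over all kept probe sets by Benjamini-Hochberg and called under 0.05. The fit was tested on simulated data. Single arrays were described only.

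The members and gene lists were chosen with earlier results of these data known. The genes named are all members, list genes called in a contrast or bright among their list, and the 5 genes most like a member. Named besides are the cell type markers, EPAS1 and the receptors CXCR1, CXCR2 and CCR2. The ratio of WT8 to PRC3 chose the set, so that contrast and those of either with Blk have no test.

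Array numbers come from the titles, without a stated meaning. Pearson r of the deviations from group means over probe sets was 0.206, 0.187 and 0.172 for arrays 1, 2 and 3 of compound 41 with DMSO, 0.275, 0.184 and 0.184 for compound 76 with DMSO and 0.188, 0.145 and 0.105 for compounds 41 and 76. All were over 0.1, so that the number was used as a block beside the main result there. Same-numbered arrays of compounds 40 and 77 did not all reach 0.1 with DMSO, nor did those of compounds 41 and 77, 76 and 77 or 77 and 40. Block results of these comparisons, and of the pooled comparison that includes compounds 40 and 77, are given as an alternative. Alternatives changed the scaling, floor, filter, trend, block, the groups in the fit and 1 array at a time.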

Additional observations from a re-analysis of the deposited data

How the results depend on the processing

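The direction was followed for the 35 member results called with the array number as a block, and none turned under any alternative. A set selected by its calls leaves little room for a turn. The direction of the member results that the block did not call is not covered. The counts of calls moved more, from totals over all probe sets of 240, 889, 474 and 60 for compounds 40, 41, 76 and 77 against DMSO, 0 for DMSO against Blk, 2079 for the pooled comparison and 768 summed over 6 pairs of compounds.

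Median scaling gave 100, 513 and 27 calls for compounds 40, 41 and 77 and 478 over the pairs, with 0 member probe sets called for compound 40 and 1 pooled. It gave 302 higher and 211 lower for compound 41, against 411 higher and 478 lower, and 212 higher and 111 lower for compound 76, against 262 higher and 212 lower. As deposited, signals gave 154 higher and 60 lower for compound 40, against 119 higher and 121 lower, with 0 members called. Over the pairs they gave 346 higher and 358 lower and median scaling 370 higher and 108 lower, against 506 higher and 262 lower. Without the floor 0 members were called for compound 40. Without the filter the totals were 149 for compound 40, 34 for compound 77 and 3 for DMSO against Blk, with 0 members called for compound 40 and 1 pooled. The variation filter of the labels gave 142, 493 and 313 for compounds 40, 41 and 76, 860 pooled and 455 over the pairs, with 1 member called for compound 76 and 4 pooled. Without the trend, compound 77 had 36 calls, the pairs 499 and compound 40 0 members.

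With the array number as a replicate block the totals were 1102, 2335, 1396 and 499 for compounds 40, 41, 76 and 77, 4023 pooled and 3758 over the pairs. Members called with the block were 3 for compound 40, 8 for 41, 2 for 76, 7 pooled and 15 over the pairs, and no call was lost. In the pooled comparison the block called CXCR4 (0.000371, 0.00164 and 0.00421 as limma adjusted p on its 3 probe sets) and CXCL8 (0.00214 and 0.00357) besides CXCL5, and of the NF-kB genes it called 3 lower and 1 higher for compound 40, and NFKBIZ lower and IL6 higher (limma adjusted p = 0.000418) for compound 77. All 18 arrays of the 6 treatment groups correlated best with arrays of their own number, a hint from the data and not from the design.

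Without WT8 and PRC3 in the fit, compounds 40 and 77 had 372 and 91 calls, and members called were 4 for compound 41 and 8 over the pairs. With 2 groups alone the totals were 6, 374, 126 and 0 for compounds 40, 41, 76 and 77 and 30 over the pairs, with 0 members for compound 40, 0 for 41 and 0 over the pairs. Compound 40 by array 1 alone, its lone array assumed to vary like the other groups, gave 25 calls and 0 members, with 1 member pooled and 411 calls over the pairs.

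Without any 1 array, totals ran from 50 to 622 for compound 40, 419 to 685 for 41, 226 to 381 for 76, 15 to 125 for 77, 0 to 2 for DMSO against Blk, 1395 to 2310 pooled and 494 to 1592 over the pairs. Members called ran from 0 to 0 for compound 40, 1 to 2 for 41, 0 to 0 for 76, 0 to 0 for 77, 0 to 0 for DMSO against Blk, 1 to 4 pooled and 2 to 3 over the pairs. The cause of these shifts was not tested. Signals near the floor limit what can be seen of CXCL3, CXCL6 and CCL2.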
